A study of Mus musculus with 101 samples.

Results

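Primordial germ cells (PGCs) of F1 female (XX) mouse embryos were compared between the highest dose of benzo[a]pyrene (BaP) and vehicle, by RNA-seq of 10 embryos out of 48 female and 53 male embryos in the series. The 5 exposed embryos descended from F0 dams given 2 mg/kg-day BaP in sesame oil, and the 5 vehicle embryos from dams given sesame oil alone. The embryos were chosen by their labels for generation, dose and sex, and no measured value entered the choice. All were OG2 mice, which carry EGFP under the Pou5f1 promoter, and their PGCs were collected at E13.5 by fluorescence-activated sorting for EGFP, 1 embryo per library. The promoter marks germ cells, so cells of the gonad without EGFP were left out as far as the sort separated them. Pregnant F0 dams were dosed by mouth each day, over a shorter window for F1 embryos than for the F2 and F3 lineages. The study covers 3 doses of BaP and vehicle in F1, F2 and F3 embryos of both sexes, and asks how F0 exposure alters gene expression of PGCs.

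Around this age, germ cells of an ovary receive retinoic acid and BMP signals, switch on Stra8 and enter meiotic prophase, while genes of the pluripotent state are turned down. Germ cells of a testis take another course, in which Nodal and FGF signals act for a time, Nanos2 and its partners rise and the cells stop dividing. BaP is a polycyclic aromatic hydrocarbon that activates the aryl hydrocarbon receptor and, once metabolised, forms bulky DNA adducts.

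Depth is given here as the reads recovered from the table, summed over its genes, so reads outside these genes are not in it. Some libraries were far deeper than others. In the exposed group, embryo C4219.4 had 32218626 reads and C4258.2 had 26534666, against 6313050 in D1824.1, 5004382 in D2582.1 and 6984208 in D2587.1. In the vehicle group, C4232.9 had 54698496 reads, against 8246772 in C4321.6, 6903715 in C4605.2, 9745816 in D1961.1 and 7384086 in D2580.1. C4219.4, C4258.2 and C4232.9 are called deep libraries below, as are 8 further F1 libraries of other groups, which makes 11 of the 38 F1 embryos. No F1 library had a depth between 9745816 and 21247642 reads. Each of the 10 females came from a different litter, so no litter links the groups.

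The label of XX germ cells was checked against marker genes. All 10 genes of a germ cell list were measured, 6 with higher and 4 with lower values in the exposed group and Dppa5a the most abundant. Dazl, an RNA-binding protein of germ cells, lay between 858 and 2251 normalized counts in the 10 embryos. Of the 7 Y-linked genes in the table, 6 were at 0 in all 10 embryos and Uty had 0.216 in vehicle embryo C4321.6 alone, while Eif2s3y averaged 199 in F1 vehicle males. Stra8, which starts meiosis in the ovary, had a mean of 447 in vehicle females and 4.43 in F1 vehicle males.

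The gene that separated exposed from vehicle embryos past correction in limma over all F1 embryos was Frat2, whose product binds GSK3 and favours Wnt signalling. In GRCm38 it spans bases 41845972 to 41848132 of chromosome 19 (minus strand). Its normalized count was 5.0 in C4219.4, 2.79 in C4258.2, 2.73 in D1824.1, 4.28 in D2582.1 and 2.86 in D2587.1. In vehicle embryos it was 0.850 in C4232.9, 1.29 in C4321.6, 1.47 in C4605.2, 0.719 in D1961.1 and 0.972 in D2580.1. All 5 exposed embryos lay above every vehicle embryo, so the groups did not overlap. Frat2 was higher at 2 mg/kg-day (3.53 ± 1.05 against 1.06 ± 0.314, SD, n = 5 each), by 1.35 on the log2 scale (SE 0.23), and the limma adjusted p was 0.0111. These are low counts, from 18 to 139 reads in exposed and from 7 to 40 in vehicle embryos. In all, 13635 genes were tested with limma, and Frat2 was the 1 gene called higher (0.00733%), with 0 called lower, in the fit over all 38 F1 embryos. When limma was fitted to the 10 females alone, its log2 fold change was again 1.35 but its adjusted p was 0.307, and 0 genes were called, with 690 higher and 942 lower at an unadjusted p under 0.05. In the fit over all F1 embryos, an unadjusted p under 0.05 was reached by 564 genes higher (4.14%) and 785 lower (5.76%), and with the added minimum of 1.5-fold 439 higher (3.22%) and 566 lower (4.15%). In 73 genes (0.535%) every exposed embryo lay above every vehicle embryo, and in 124 (0.909%) every exposed embryo lay below.

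The genes ranked next did not pass correction in limma over all F1 embryos, though some did in other tests. Nphs1 codes for nephrin, a protein of the filtration slit of the kidney, and Nphs1as is the transcript annotated on the opposite strand within the same stretch of chromosome 7. The strand use of the libraries was not stated, so reads of this pair cannot be told apart. Nphs1as had 5.22 in C4219.4, 4.87 in C4258.2, 5.01 in D1824.1, 3.80 in D2582.1 and 0.816 in D2587.1, against 0.616 in C4232.9, 0.432 in C4321.6, 1.61 in C4605.2, 0.719 in D1961.1 and 0.278 in D2580.1. Exposed embryo D2587.1 lay within the vehicle range and the other 4 above it (log2 fold change 1.77, SE 0.34, limma adjusted p = 0.0605). Nphs1as was called by the quasi-likelihood test (adjusted p = 0.0117), the likelihood ratio test (2.62e-05) and DESeq2 (1.90e-05), and by limma with upper quartile scaling (0.0358) or a pseudocount of 0.1 (0.0386). Nphs1 itself showed the same split of embryos, with D2587.1 at 0.816 and the other 4 from 3.80 to 7.16, above the highest vehicle value of 2.41 (1.62, limma adjusted p = 0.181), and the same 3 tests on recovered reads called it, with adjusted p of 0.0416, 0.000353 and 0.000213. D2587.1 also lay within the vehicle range for Serp1, a protein of the translocon of the endoplasmic reticulum, with 29.9 against 55.2 to 72.5 in the other exposed embryos and 18.1 to 35.6 in vehicle embryos. The likelihood ratio test and DESeq2 called Serp1, with adjusted p of 0.0361 and 0.0211. Without D2587.1, limma called 25 genes, 17 higher and 8 lower, which included Frat2, Nphs1as, Nphs1, Serp1 and Hopx among the higher and Fam69b, H2-L, Rufy2 and Vamp3 among the lower. Leaving out any other single embryo gave at most 7 calls. D2587.1 was the exposed embryo nearest to vehicle in several of these genes, so its removal widens their differences by construction. Calls made only without it are no added support.

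In a pair of ranked genes, Morc1 and Ankrd45, the exposed embryos lay above all vehicle embryos without passing correction in limma over all F1 embryos. DESeq2 called both, with adjusted p of 0.0488 and 0.0361. Limma called them without D2587.1, with 0.0476 for each, under the limit given above for that fit. Morc1, a GHKL ATPase that keeps transposable elements silent in male germ cells, had 73.9 in C4219.4, 49.6 in C4258.2, 85.6 in D1824.1, 73.2 in D2582.1 and 37.1 in D2587.1. Its vehicle values were 17.2 in C4232.9, 23.3 in C4321.6, 36.7 in C4605.2, 11.9 in D1961.1 and 33.5 in D2580.1. The lowest exposed embryo, D2587.1, thus stood just above the highest vehicle embryo (log2 fold change 1.42, SE 0.34, limma adjusted p = 0.240). Ankrd45, an ankyrin repeat protein, ranged from 12.1 to 34.0 in exposed and from 6.26 to 9.72 in vehicle embryos (1.57, limma adjusted p = 0.240). The others among the 10 genes ranked highest were 2610037D02Rik, E130218I03Rik, the small homeodomain protein Hopx and Zfp593, with log2 fold changes of 1.27, 1.0, 1.02 and 0.97. DESeq2 called all of these except Hopx.

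Among genes with lower values, the one with the smallest p was Vcpip1, a deubiquitinase that works with the ATPase VCP. It had 9.83 in C4219.4, 6.74 in C4258.2, 9.10 in D1824.1, 6.18 in D2582.1 and 8.02 in D2587.1, against 20.1 in C4232.9, 17.1 in C4321.6, 12.9 in C4605.2, 17.7 in D1961.1 and 12.8 in D2580.1. The groups did not overlap, yet the difference did not pass correction in limma (log2 fold change -0.97, SE 0.21, limma adjusted p = 0.181), while the likelihood ratio test and DESeq2 called it, with adjusted p of 0.0282 and 0.0211. Agtpbp1, a carboxypeptidase that trims glutamates from tubulin, ranged from 6.07 to 9.27 in exposed and from 11.1 to 16.8 in vehicle embryos (-0.85, limma adjusted p = 0.240, DESeq2 0.0451). Rufy2, Ptpdc1, Spata6 and the haem-binding protein Pgrmc1 likewise had every exposed embryo below every vehicle embryo. Pgrmc1 ranged from 4.99 to 12.6 in exposed and from 14.7 to 36.5 in vehicle embryos (-1.19, limma adjusted p = 0.240). Fam69b and the class I antigen gene H2-L had low exposed values in 4 embryos and one within the vehicle range in D2587.1, at 6.80 and 2.45. Without D2587.1 limma called Fam69b (adjusted p = 0.0160), and H2-L, Rufy2 and Vamp3 (0.0476 each). For Fam69b and H2-L this removes the exposed embryo nearest to vehicle, which widens the difference by construction. H2-L is nearly identical to its neighbour H2-D1, and reads may be shared between them. The SNARE protein Vamp3 and the homeobox gene Dlx4 complete the 10 ranked genes, with log2 fold changes of -0.83 and -1.18. DESeq2 called Vamp3 (adjusted p = 0.0472). Dlx4 was called only by limma without C4605.2 (0.0136), whose removal widened its log2 fold change to -1.52.

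**Figure D1:**
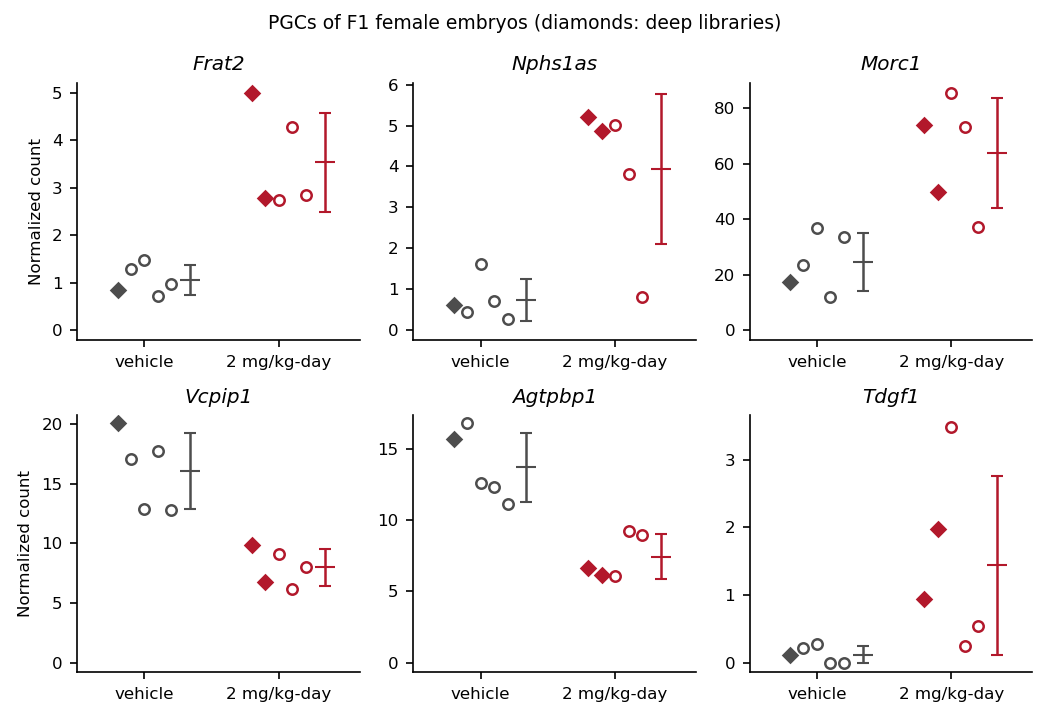
Normalized count of 6 genes in each F1 female embryo of the vehicle and 2 mg/kg-day groups (5 each), with deep libraries as diamonds and bars for the mean ± SD. Frat2 runs from 2.73 to 5.0 in exposed and from 0.719 to 1.47 in vehicle embryos, and Vcpip1 from 6.18 to 9.83 and from 12.8 to 20.1. The axes of the panels differ.

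The call of Frat2 depended on which libraries were in the fit, while its log2 fold change stayed between 1.23 and 1.44 when single embryos were left out. Without the deep libraries, which left 3 exposed and 4 vehicle females, its log2 fold change was 1.23 and its limma adjusted p 0.858. No gene was then called by limma, edgeR's likelihood ratio test or edgeR's quasi-likelihood test, with 255 genes higher and 357 lower at an unadjusted limma p under 0.05. Counts at the looser rule were then 218 higher and 285 lower. Leaving out single embryos, the adjusted p of Frat2 exceeded 0.05 without C4219.4 (0.123), D2582.1 (0.0888), C4232.9 (0.0734), D1961.1 (0.103) or D2580.1 (0.0530), and 0 genes were called in each of these fits. It stayed below 0.05 without C4258.2 (0.0160), D1824.1 (0.0156), D2587.1 (0.00669), C4321.6 (0.0201) or C4605.2 (0.0105). With reads thinned to the shallowest library it was 0.112, and 0 genes were called, with 566 higher and 706 lower at an unadjusted p under 0.05. Without C4605.2 limma called 7 genes, 4 higher and 3 lower, and without C4258.2 it called 2. On the recovered reads of all libraries, edgeR's quasi-likelihood test called 3 genes, all higher (Frat2, Nphs1as and Nphs1). The likelihood ratio test called 8, of which Vcpip1 was lower and Frat2, Nphs1as, Nphs1, 2610037D02Rik, Serp1, Tdgf1 and Lefty2 were higher. DESeq2 called 15 higher and 3 lower.

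**Figure D2:**
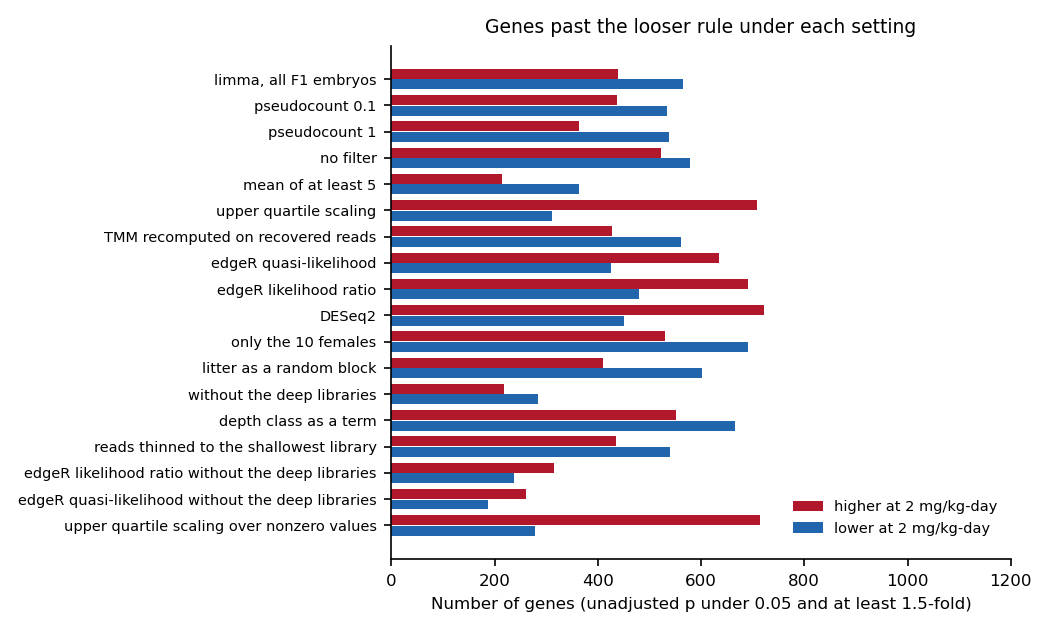
Number of genes at an unadjusted p under 0.05 and at least 1.5-fold, higher or lower at 2 mg/kg-day in F1 females, under each setting that keeps or removes libraries, filters, scalings or tests. Limma on all F1 embryos gives 439 higher and 566 lower, and without the deep libraries 218 and 285. Upper quartile scaling turns the balance to 709 higher and 311 lower, and edgeR's quasi-likelihood test to 634 and 426.

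The balance of higher and lower genes moved with the scaling and with the test. In limma with the deposited scaling 43.7% of the genes at the looser rule were higher and the median log2 fold change of all genes was -0.016. After upper quartile scaling 69.5% were higher and the median was 0.092. With the upper quartile taken over nonzero values it was 0.10. Without a change to upper quartile scaling, the quasi-likelihood test gave 634 higher and 426 lower (59.8% higher), the likelihood ratio test 691 and 479 (59.1%) and DESeq2 722 and 450 (61.6%), against 43.2% higher in limma with TMM recomputed on the recovered reads. Counts of higher and lower genes across the whole table are therefore read relative to these shifts. Leaving out embryos moved the counts too. At an unadjusted limma p under 0.05, fits without single embryos had 317 to 836 genes higher and 447 to 1100 lower. Without the deep libraries 255 were higher and 357 lower. Counts of list members in such fits are read beside these.

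Genes of meiotic prophase had lower mean values in the exposed group, none past correction. Among the members of the list are the axis and central elements of the synaptonemal complex, meiotic cohesins and recombination factors. Of its 35 tested members, 33 had a lower mean log2 value at 2 mg/kg-day and 14 of them an unadjusted limma p under 0.05, against 0 higher (5.76% and 4.14% of all genes). The median log2 fold change was -0.63, beside -0.016 over all genes tested. The members were chosen with earlier results of these data known, and some are genes that the study reported as lower in these same females. The count and the median are thus not independent of that choice. Ugt8a, an enzyme of galactolipid synthesis, ranked first, from 5.94 to 12.8 in exposed and from 11.5 to 36.0 in vehicle embryos (log2 fold change -1.19, limma adjusted p = 0.357). Smc1b, the meiotic cohesin, had 344 in C4219.4, 428 in C4258.2, 319 in D1824.1, 239 in D2582.1 and 477 in D2587.1, against 1366 in C4232.9, 885 in C4321.6, 402 in C4605.2, 507 in D1961.1 and 431 in D2580.1. Vehicle embryos C4605.2 and D2580.1 lay within the exposed range and D1961.1 just above it, while C4232.9 and C4321.6 were the highest. Dmc1, the meiotic strand-exchange protein, ranged from 27.9 to 50.5 and from 40.1 to 119. Meiob, which binds single-stranded DNA at breaks, ranged from 0.713 to 8.84 in exposed and from 4.02 to 64.7 in vehicle embryos (-1.88, limma adjusted p = 0.383). Other meiotic genes that the study names were Sycp2, Tex11, Ccnb3, Tex15, Tex12, Syce1 and Syce3, with log2 fold changes of -1.25, -1.05, -0.97, -0.92, -0.65, -0.63 and -0.50 and no limma adjusted p below 0.409. Syce3 was 0.054 without the deep libraries.

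The same vehicle embryos stood out when the list was read per embryo. The summed normalized count of its members was 13960 in C4232.9 and from 4751 to 7617 in the other vehicle embryos, against 4580 to 7539 in exposed embryos, so the sums overlapped. The median difference of the members from the vehicle mean was -0.85 in C4219.4, -0.42 in C4258.2, -0.77 in D1824.1, -0.82 in D2582.1 and -0.25 in D2587.1. It was 0.90 in C4232.9, 0.50 in C4321.6, -0.77 in C4605.2, -0.20 in D1961.1 and -0.48 in D2580.1, so C4605.2 and D2580.1 lay among the exposed embryos and D1961.1 just above them. Without C4232.9 the list's median was -0.40 with 6 members lower at an unadjusted limma p under 0.05, without C4321.6 it was -0.55 with 9, and without the deep libraries -0.43 with 4. All genes lower at that p numbered 577 of 13629, 447 of 13658 and 357 of 13144 in these fits. Syce2, the most abundant member and a central element protein, went the other way, with a mean of 1769 in exposed and 1195 in vehicle embryos (log2 fold change 0.50, limma adjusted p = 0.648). Sycp3, the axis protein, changed sign when C4232.9 was left out, from -0.38 to 0.12.

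Stra8 had 63.7 in C4219.4, 153 in C4258.2, 71.2 in D1824.1, 112 in D2582.1 and 334 in D2587.1. Its vehicle values were 743 in C4232.9, 617 in C4321.6, 112 in C4605.2, 450 in D1961.1 and 313 in D2580.1. Embryo C4605.2 sat among the exposed and D2587.1 among the vehicle embryos, and the difference did not pass correction (log2 fold change -1.62, SE 0.64, limma adjusted p = 0.434). The list of retinoic acid signalling, Stra8 included, was split, with 9 of its 17 tested members higher, or 8 of the 16 with a mean of at least 0.5 in the 10 females. At an unadjusted limma p under 0.05 Stra8 was the 1 member lower and Aldh1a2, which makes retinoic acid, the 1 higher (5.76% and 4.14% of all genes). Neither p held throughout. No member was lower at it without C4232.9 or without the deep libraries, and none was higher without C4219.4, D1824.1, D2582.1, D2587.1, C4232.9, C4321.6, D1961.1 or D2580.1. Aldh1a2 ranged from 0.71 to 1.90 in exposed and from 0.417 to 0.938 in vehicle embryos. Among 23 genes of the BMP response and of oogenic transcription factors, 15 had lower values and 3 an unadjusted limma p under 0.05, namely Taf7l, Sohlh2 and the receptor Bmpr1a (-1.62, -1.06 and -0.48), beside 5.76% of all genes lower at that p. Without C4321.6 no member reached it, and 1 did without C4219.4, C4258.2, D2582.1 or C4232.9. Without the deep libraries 11 of these genes were lower and 12 higher, with 0 at an unadjusted p under 0.05.

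Genes of pluripotency and of the early germ cell had higher values as a group. Their most abundant member, Dppa5a, is also on the germ cell list above and among the male-specific genes below. All 25 tested members had a higher mean log2 value at 2 mg/kg-day and 7 an unadjusted limma p under 0.05 (4.14% of all genes), with a median log2 fold change of 0.40. None passed correction. Without C4232.9, 20 members were higher and 2 reached that p, and without the deep libraries 22 and 3. It was reached by 4 members without C4219.4 or C4321.6 and by 11 without C4605.2. At an unadjusted p under 0.05, limma with upper quartile scaling had 12 members higher and DESeq2 11. Over all genes these fits had 895 of 13691 and 872 of 13635 higher. Dppa5a, an abundant RNA-binding protein of pluripotent cells, had 2892 in C4219.4, 3076 in C4258.2, 3004 in D1824.1, 5423 in D2582.1 and 2192 in D2587.1, against 1154 in C4232.9, 1358 in C4321.6, 2292 in C4605.2, 1580 in D1961.1 and 2393 in D2580.1. D2587.1 again lay within the vehicle range (0.91, SE 0.38, limma adjusted p = 0.461). Klf2, a pluripotency transcription factor, and Tcl1, a coactivator of AKT, had log2 fold changes of 0.74 and 0.59. Pou5f1, whose promoter drives EGFP, ranged from 24 to 110 in exposed and from 10.9 to 90.4 in vehicle embryos, with its lowest values in the deep libraries (0.30, limma adjusted p = 0.863).

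**Figure D3:**
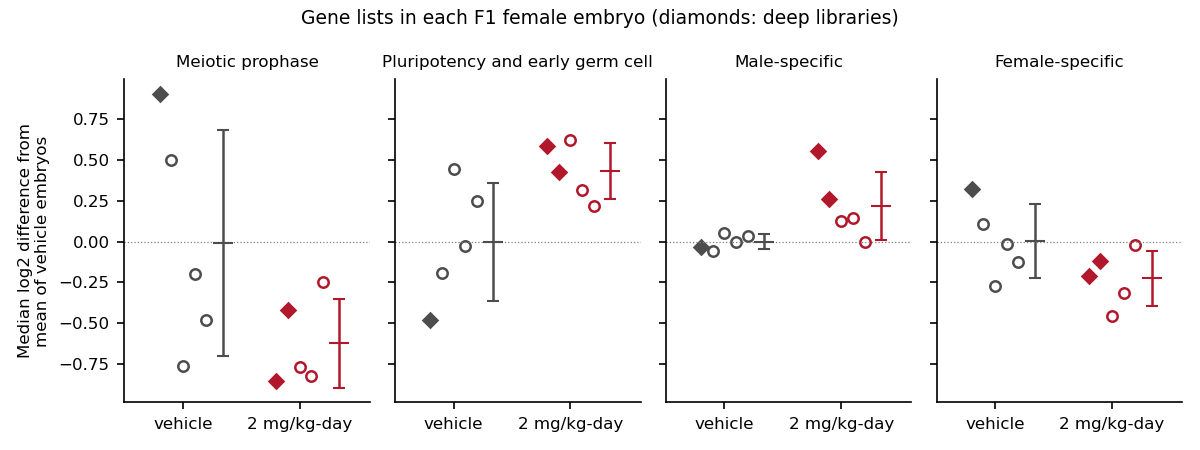
Median log2 difference from the mean of the vehicle embryos, over the genes of 4 lists, in each F1 female embryo (5 per group), with deep libraries as diamonds and bars for the mean ± SD. For meiotic prophase genes vehicle embryos spread from -0.77 to 0.90 and exposed ones from -0.85 to -0.25. For pluripotency genes they spread from -0.48 to 0.44 and from 0.22 to 0.62.

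Components of Nodal signalling differed in their support. Tdgf1, the Nodal co-receptor Cripto, had 0.936 in C4219.4, 1.98 in C4258.2, 3.49 in D1824.1, 0.238 in D2582.1 and 0.544 in D2587.1. In vehicle embryos it had 0.106 in C4232.9, 0.216 in C4321.6, 0.268 in C4605.2 and 0 in D1961.1 and D2580.1. These values stand on 26, 39, 23, 1 and 4 reads in exposed and on 5, 2, 2, 0 and 0 reads in vehicle embryos. All but D2582.1 of the exposed embryos lay above the vehicle embryos (log2 fold change 1.41, SE 0.44, limma adjusted p = 0.344). Over the 252 splits of the 10 embryos into 5 and 5, the two-sided exact permutation p of Tdgf1 was 0.0159. That p is not adjusted for the number of genes, and the smallest it can be is 0.00794. Every gene whose groups did not overlap, 73 above and 124 below among 13635, reaches that smallest value. The share of all genes at 0.0159 or less was not computed. The likelihood ratio test of edgeR and DESeq2 called Tdgf1 higher, with adjusted p of 0.000498 and 0.00127, and edgeR's quasi-likelihood test did not. Lefty2, a Nodal target that restrains the pathway, had 3.96 in C4258.2 and 2.28 in D1824.1 and at most 0.360 in the other exposed embryos, against 0 to 0.670 in vehicle embryos (limma 0.88, adjusted p = 0.434). It too was called by the likelihood ratio test and DESeq2, with adjusted p of 0.00105 and 0.00289, and not by the quasi-likelihood test. Gdf3, a Nodal-related ligand, ranged from 46.0 to 71.2 and from 25.6 to 65.5 (0.62, limma adjusted p = 0.474). Of 18 tested genes of Nodal and activin signalling, 11 had higher values and 3 of them an unadjusted limma p under 0.05 (4.14% of all genes), with a median of 0.21. The members Tdgf1 and Lefty2 were reported by the study as higher in these same females, so these counts are not independent of its result. Leaving out 2 genes with a mean under 0.5 in the 10 females, 9 of 16 were higher and the median was 0.13. Without the deep libraries 12 of 19 were higher, 1 with such a p, and the median was 0.16, while both edgeR tests then gave 3. With all libraries the median was 0.51, 0.52 and 0.55 in the quasi-likelihood test, the likelihood ratio test and DESeq2, with 4, 5 and 5 members higher at that p. Without D1824.1 that p was reached in limma by 1 member higher and 1 lower, and by 2 higher without C4258.2, C4232.9, C4321.6 or D1961.1. The receptors Acvr1b and Acvr2a had log2 fold changes of 0.54 and -0.18, and Acvr2b had -0.03, a value of either sign depending on the setting.

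Of 28 tested genes of male germ cell fate, 16 had higher values, 5 with an unadjusted limma p under 0.05, and 1 lower had such a p (4.14% and 5.76% of all genes). In 2 of the 28 the mean was under 0.5 in the 10 females, and 15 of the other 26 were higher. The 5 became 2 without C4219.4 or C4232.9 and 3 without C4258.2, D2582.1 or C4321.6. Nanos3, an RNA-binding protein that keeps PGCs alive, had 114 in C4219.4, 113 in C4258.2, 80.0 in D1824.1, 147 in D2582.1 and 60.8 in D2587.1, against 33.0 in C4232.9, 31.9 in C4321.6, 58.5 in C4605.2, 40.9 in D1961.1 and 65.3 in D2580.1. Again 4 exposed embryos lay above all vehicle embryos and D2587.1 did not (log2 fold change 1.15, SE 0.33, limma adjusted p = 0.321). Dusp6, the ERK phosphatase that FGF signalling induces, ranged from 6.66 to 16.6 and from 3.0 to 8.57 (0.96, limma adjusted p = 0.297). Ddx4, the germ cell helicase known as Vasa and the one lower, ranged from 185 to 477 and from 399 to 586 (-0.74, limma adjusted p = 0.453). Lhx1, a LIM homeobox gene that is higher in male germ cells, ranged from 0.456 to 1.66 and from 0.425 to 2.41 (-0.26, limma adjusted p = 0.845). Without the deep libraries 13 of the 28 genes were higher, with 1 in each direction at an unadjusted p under 0.05.

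Genes that differ between the sexes were taken from F2 and F3 vehicle embryos, 12 of each sex, none of which entered the F1 comparison. There, 1019 of 13128 genes (7.76%) were more than 2-fold higher in males and 1087 (8.28%) in females at a limma adjusted p under 0.05. Of the former, 1008 were tested in F1, and 743 (73.7%) had a higher mean log2 value in exposed females, beside 48.5% of all genes, with a median log2 fold change of 0.24. The filter was applied over all F1 embryos, males included, and 268 of these genes had a mean under 0.5 in the 10 females, 12 of them at 0 in all 10. For these 12 the sign has no meaning, and 1 of them is counted among the 743. Of the other 740, 539 (72.8%) were higher, with a median of 0.27, and 126 were higher and 5 lower at an unadjusted limma p under 0.05. Over the whole list 130 (12.9%) were higher at that p and 5 (0.496%) lower, beside 4.14% and 5.76% of all genes. Of the female-specific genes 1080 were tested, and 734 had a lower value and 346 (32.0%) a higher one, with a median of -0.22 and with 172 (15.9%) lower and 29 (2.69%) higher at that p. The male-specific median was 0.15 without C4219.4, and 0.48, 0.49 and 0.52 in the quasi-likelihood test, the likelihood ratio test and DESeq2, the last of which had 229 genes higher at an unadjusted p under 0.05 and the likelihood ratio test 222. Over all 13635 genes the medians of these tests were 0.021, 0.022 and 0.044. DESeq2 had 872 of all genes higher at that p and the likelihood ratio test 806. Without C4232.9 the female-specific median was -0.14, with 97 genes lower and 17 higher at an unadjusted limma p under 0.05. Of all 13629 genes in that fit, 577 were lower and 544 higher at that p. Without C4321.6 the median was -0.20, with 114 lower, beside 447 of all 13658 genes. With upper quartile scaling, which moved the median of all genes to 0.092, the female-specific median was -0.12, with 433 genes higher by value and 125 lower at that p, and the male-specific median was 0.31. Of all 13691 genes in that fit, 451 were lower at that p. Over nonzero values the female-specific median was -0.11, with 106 lower, beside 382 of all 13763 genes. Non-overlapping groups were found for 16 male-specific genes above and 2 below, and for 5 female-specific genes above and 11 below, beside 0.535% of all genes above and 0.909% below. For female-specific genes both shares lay near those of all genes. Without the deep libraries the medians were 0.08 and -0.19. Then 69 of 1006 male-specific genes were higher at an unadjusted limma p under 0.05 and 91 of 1065 female-specific genes lower. Of all 13144 genes in that fit, 255 were higher and 357 lower at that p. In the quasi-likelihood and likelihood ratio tests the counts of the lists were 85 and 98 higher, and 50 and 60 lower. Over all 13144 genes these tests had 305 and 354 higher, and 239 and 283 lower. Frat2, Nphs1as, Nphs1, 2610037D02Rik and Serp1 belong to the male-specific genes, while Morc1 and Hopx are female-specific. The sex-specific genes were not cleared of members of the other lists, and all lists were read in the same 10 embryos. Their shifts are therefore not separate results.

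The shift of these lists was uneven among embryos. The median difference of male-specific genes from the vehicle mean was 0.55 in C4219.4, 0.26 in C4258.2, 0.12 in D1824.1, 0.15 in D2582.1 and 0 in D2587.1. Vehicle embryos ranged from -0.06 in C4321.6 to 0.05 in C4605.2, so both deep exposed libraries stood highest and D2587.1 stood among the vehicle embryos. The same libraries, C4219.4 and C4258.2, had the highest sums of Sertoli markers, 72.3 and 115 against at most 42.1 in the others. Most of that sum was the single gene Aard, with a mean of 51.0 beside a mean sum of 54.5 in exposed embryos. Of the 3 Sertoli markers with a mean of at least 0.5 in the 10 females, 1 was higher and 2 lower. C4219.4 also had the highest sum of stroma and mesonephros markers, 15.9. The part of such cells in the shift was not tested. For female-specific genes the exposed embryos ranged from -0.46 in D1824.1 to -0.02 in D2587.1, and the vehicle embryos from -0.27 in C4605.2 to 0.32 in C4232.9.

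Genes of the aryl hydrocarbon receptor pathway and of xenobiotic metabolism did not move together. Of 27 tested members 16 had higher values, with 1 higher and 2 lower at an unadjusted limma p under 0.05 (4.14% and 5.76% of all genes). The 2 lower became 0 without D2582.1 and 1 without C4219.4, C4258.2, C4232.9, C4321.6 or the deep libraries. Upper quartile scaling also gave 1, and both edgeR tests without the deep libraries gave 0. Gpx1, a glutathione peroxidase, had 1154 in C4219.4, 1425 in C4258.2, 1489 in D1824.1, 1714 in D2582.1 and 1051 in D2587.1, against 768 in C4232.9, 739 in C4321.6, 1122 in C4605.2, 778 in D1961.1 and 1097 in D2580.1. All exposed embryos but D2587.1 lay above the vehicle embryos (log2 fold change 0.60, limma adjusted p = 0.402). Ephx2, an epoxide hydrolase, ranged from 0.475 to 3.03 and from 3.19 to 5.39 without overlap (-1.05, limma adjusted p = 0.434). Tiparp, a target and repressor of the receptor, ranged from 18.1 to 44.3 and from 32.3 to 67.1 (-0.60, limma adjusted p = 0.487). The receptor targets Cyp1b1 and Nqo1, named outside the rule for genes after their values were seen, had means of 2.27 and 13.5 in exposed and 1.68 and 12.5 in vehicle embryos (limma adjusted p = 0.778 and 0.904).

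Damage responses were likewise mixed. Of 29 tested p53 targets 14 had higher values, with a median of 0.00, and of 21 tested genes of the BCL2 family and apoptosis 12 had. Trp63, the p53 relative that guards oocytes, had 1.55 in C4219.4, 1.62 in C4258.2, 2.12 in D1824.1, 1.66 in D2582.1 and 0.272 in D2587.1, against at most 0.536 in vehicle embryos (log2 fold change 1.2, limma adjusted p = 0.344). Bcl2l11, the pro-apoptotic protein BIM, ranged from 10.7 to 23.7 and from 6.15 to 13.7 (0.64, limma adjusted p = 0.474). Repair of bulky adducts and crosslinks had 22 of 33 tested genes lower, 4 with an unadjusted limma p under 0.05 and 0 higher (5.76% and 4.14% of all genes), and without the deep libraries 20 lower and 0 with such a p. The 4 became 2 without C4219.4, D2582.1, C4321.6 or C4605.2. Ddb2, which recognises damaged bases in nucleotide excision repair, ranged from 5.65 to 12.1 and from 8.17 to 26.0 (-0.99, limma adjusted p = 0.343). Ercc6, a factor of transcription-coupled repair, ranged from 7.20 to 16.7 and from 13.9 to 21.5.

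Chemokines, methylation enzymes and cell cycle genes were read in the same way, beside 4.14% of all genes higher and 5.76% lower at an unadjusted limma p under 0.05. Of 10 tested chemokine and inflammation genes 4 had higher values, or 2 of 7 without the 3 with a mean under 0.5 in the 10 females, and Ccl28, a mucosal chemokine, had the only unadjusted limma p under 0.05 (log2 fold change 0.87, adjusted p = 0.409), which no member reached without the deep libraries. Ccl2, Ccl6, Ccl7 and Ccl12 were below the minimum level for testing, with no embryo above 1.89. Of 8 DNA methylation enzymes 5 had higher values, and Uhrf1, which recruits Dnmt1 to replicated DNA, had an unadjusted limma p under 0.05 with lower values (-0.67, adjusted p = 0.483). No enzyme was lower at that p without the deep libraries, with upper quartile scaling, or without C4219.4, D1824.1, D2582.1, C4232.9, C4321.6 or D1961.1. Of 26 proliferation genes 11 had higher values, with a median of -0.03 that turned to 0.09 after upper quartile scaling, with 19 higher. Without C4232.9 the median was -0.18, with 7 higher. Single genes of this list were the nucleotide synthesis enzyme Tyms, with a log2 fold change of 0.67, and the spindle checkpoint kinase Bub1, with -0.54.

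Markers of other cells of the gonad were summed in each embryo. In bulk samples, fewer cells of a type and less RNA per cell cannot be told apart. All 3 tested stroma and mesonephros markers had higher values in exposed embryos, and the list's summed level was 15.9 in C4219.4, 7.76 in C4258.2, 8.04 in D1824.1, 6.18 in D2582.1 and 5.71 in D2587.1. In vehicle embryos the sum was 3.87 in C4232.9, 1.83 in C4321.6, 3.35 in C4605.2, 2.34 in D1961.1 and 2.50 in D2580.1, so the groups did not overlap. The sum runs over 10 measured genes, of which only 3 reached the minimum level for testing. Its most abundant gene was Wnt5a, with means of 2.17 and 0.989, and the part of such cells in the gene differences was not tested. Of the pregranulosa markers 1 of 6 tested had a higher value in limma, 3 after upper quartile scaling and 4 in edgeR and DESeq2, with sums from 2.43 to 8.47 in exposed and from 4.44 to 7.66 in vehicle embryos, and Foxl2, which defines these cells, was not in the table. Of 9 Sertoli markers in the fit, 6 had a mean under 0.5 in the 10 females, so that their direction rests on few reads. Of the other 3, 1 was higher and 2 lower, with a median of -0.24. Aard made up most of the sum, with 67.2 in C4219.4 and 112 in C4258.2 against 17.6 to 38.3 in the other exposed and 17.6 to 33.5 in the vehicle embryos. Amh, which defines Sertoli cells, was at 0 in 7 of the 10 embryos and at most 0.396. Fetal Leydig markers had 3 of 4 tested genes higher, with sums from 3.13 to 6.09 and from 1.78 to 4.69 and Insl3 the most abundant.

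Endothelial markers had 4 of 4 tested genes with a higher mean log2 value in limma and 3 of 4 higher in edgeR and DESeq2, and their sums overlapped, from 30.6 to 41.1 and from 14.8 to 51.8. Most of the sum was Pecam1, which germ cells also express and whose mean was 32.6 in exposed and 33.7 in vehicle embryos. Macrophage markers had 8 of 9 tested genes higher (median log2 fold change 0.33), with sums from 13.3 to 58.7 and from 11.7 to 40.9 and C1qb the most abundant. Without D2580.1, 5 of these markers were higher and 4 lower, with a median of 0.16. The median was 0.10 without C4258.2, with 7 higher, and 0.84 without the deep libraries, with 9 higher. Erythroid markers had 4 of 4 tested genes higher, 2 of them with a mean under 0.5 in the 10 females, and their sum was 1653 in D2582.1 and at most 6.44 in any other of the 10 embryos. Hba-a1 and Hba-a2, near-identical globin genes, each had 826 in that embryo. Stress and dissociation genes had 9 of 15 higher, with sums from 234 to 429 and from 254 to 514, and the chaperone Hspa5 was the most abundant. The part of these cells in the differences was not tested.

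At the lower doses, which share the 5 vehicle females, the means of Frat2, Nphs1as, Vcpip1 and Stra8 lay nearer to vehicle than at 2 mg/kg-day. Frat2, Nphs1as and Vcpip1 were picked by their p at 2 mg/kg-day against these vehicle females. Smaller differences at other doses would follow from that choice alone, and no dose response was tested. Frat2 averaged 2.05 in 2 females at 0.033 mg/kg-day and 1.74 in 5 at 0.2 mg/kg-day, beside 3.53 at 2 mg/kg-day and 1.06 in vehicle. Nphs1as averaged 1.24 and 0.83, beside 3.94 and 0.730. Vcpip1 averaged 14.9 and 15, beside 7.98 and 16.1, and Stra8 491 and 472, beside 147 and 447.

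Whether the response of females differed from that of males was tested within F1, where some males were littermates of the females. Frat2 averaged 4.63 in 8 exposed and 5.07 in 5 vehicle males, and the female response exceeded the male one by 1.47 on the log2 scale (SE 0.31, limma adjusted p = 0.190). Agtpbp1 averaged 14.6 in exposed and 10.3 in vehicle males, and its difference of responses was -1.29 (SE 0.27, limma adjusted p = 0.190). No gene passed in limma without a litter term or in edgeR's quasi-likelihood test, with 596 and 667 genes at an unadjusted p under 0.05. The likelihood ratio test called 4 genes, Nphs1as, Frat2, Agtpbp1 and Nphs1. These fits took no account of litters. With litter as a random block, added after the values were seen, limma called 2 genes, Frat2 (1.44, adjusted p = 0.0290) and Agtpbp1 (-1.26, adjusted p = 0.0290), with 1271 at an unadjusted p under 0.05.

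Females of later generations have vehicle groups of their own. Frat2 averaged 1.26 in 3 exposed and 1.18 in 6 vehicle F2 females, and 2.09 in 4 exposed and 1.09 in 6 vehicle F3 females. Vcpip1 averaged 14.5 and 12.8 in F2 and 10.3 and 12.6 in F3. Tdgf1 was at 0 in all 3 exposed F2 females and averaged 0.496 in vehicle, and averaged 2.45 and 0.194 in F3. The difference between the F1 and F2 responses passed for 0 genes in limma and in the quasi-likelihood test (1054 and 1171 at an unadjusted p under 0.05), and for 1 gene, Tdgf1, in the likelihood ratio test. Against F3, 0 genes passed in each of the 3 tests, with 272 at an unadjusted p under 0.05 in limma, 336 in the quasi-likelihood and 392 in the likelihood ratio test. The dosing window differed between F1 and the later lineages, so generation and window cannot be told apart.

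Promoters of 2 genes are shown, of Frat2, which limma called, and of Tdgf1, which the likelihood ratio test called among 8 genes in F1 females and alone in the difference from F2. The aryl hydrocarbon receptor binds sites with the core GCGTG, searched here on both strands as GCGTG and CACGC, in RefSeq promoter sequences of GRCm38.p6 that run from 250 bases before to 50 bases after the start of a transcript. Of 32851 promoters 10639 (32.4%) held the core, and 84 of the 117 named genes matched the table by symbol, with the core in 50 of their 106 promoters. The Frat2 promoter, chr19:41848083-41848382 on the minus strand, held no match, and the Tdgf1 promoter, chr9:110946109-110946408 on the minus strand, held 2, printed in capitals.
Frat2: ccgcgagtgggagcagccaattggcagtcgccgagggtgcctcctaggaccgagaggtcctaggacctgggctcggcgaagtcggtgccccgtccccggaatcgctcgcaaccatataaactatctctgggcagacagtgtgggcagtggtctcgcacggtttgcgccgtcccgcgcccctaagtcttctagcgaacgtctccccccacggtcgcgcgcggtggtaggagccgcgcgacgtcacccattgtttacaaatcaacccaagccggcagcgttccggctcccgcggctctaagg
Tdgf1: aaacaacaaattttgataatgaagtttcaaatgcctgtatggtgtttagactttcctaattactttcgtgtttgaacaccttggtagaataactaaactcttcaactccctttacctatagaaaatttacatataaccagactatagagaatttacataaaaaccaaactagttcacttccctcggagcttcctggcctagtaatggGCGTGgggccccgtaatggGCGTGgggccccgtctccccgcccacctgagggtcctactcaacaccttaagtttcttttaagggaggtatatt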

How the data were processed

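RNA of sorted PGCs was measured by RNA-seq in single embryos, 48 female and 53 male. The deposited unit is signal, here gene counts scaled by the authors with TMM factors from edgeR, after cDNA synthesis with an oligo(dT) primer, trimming with Trim Galore, alignment to mm10 with STAR and exon counting with Rsubread (versions and strand use not stated). In 99 embryos the reads were recovered from the step between low values. All nonzero values of these embryos (100%) were whole reads within 0.05. In the other 2, neither an F1 embryo, they could not be recovered.

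In R 4.3.3, limma 3.58.1 with a mean-variance trend and empirical Bayes was fitted to log2(normalized count + 0.5) over the 38 F1 embryos in 8 groups of sex and dose, for genes with a mean of at least 0.5. P-values are two-sided and Benjamini-Hochberg adjusted, with 0.05 as the threshold. The looser rule is an unadjusted p under 0.05 and at least 1.5-fold. Differences of response between the sexes used the same fit, and between generations a fit of all embryos in 24 groups. In those generation contrasts, edgeR used the 99 embryos with recovered reads. Embryos are the units. No paired analysis was possible because the 10 females come from 10 litters. Genes named are those called, the 10 with the smallest p in each direction, genes that the study names, up to 3 members with the smallest p and the most abundant member of each list, and genes called in an interaction. Members and lists were chosen with earlier results of these data known. Lists are described by counts and medians. Alternatives were other pseudocounts, filters and scalings, edgeR 4.0.16, DESeq2 1.42.0, the 10 females alone, litters as a random block (also for the sexes), depth as a term, reads thinned to one depth, and fits without deep libraries or single embryos. The limma, edgeR and DESeq2 fits were tested on simulated data. Replicates were checked for copies. Values are mean ± SD unless stated, and low values rest on few reads.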

Additional observations from a re-analysis of the deposited data

Results flagged for a closer look

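In groups of 5 embryos, a sample whose gap to its nearest neighbour exceeded 0.71 of the group's range was singled out. Chance flags about 1 in 20 groups where values are normally distributed, and the rate for skewed or low counts was not worked out. A gene at 0 in all embryos of a group but 1, as Ccl17, Amh and Uty in vehicle embryos, is always singled out. No explanation was tested for any of these values.

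Vehicle embryo C4232.9, the deepest of the 10 libraries with 54698496 reads, stood apart from the other vehicle embryos in Sycp3 (2954), Tex12 (648) and Dazl (2251), and in the near-absent Ccl17 (0.0212) and Amh (0.0637), for which the other vehicle embryos were at 0. Among the other vehicle embryos, C4605.2 stood apart in Dcn (1.61) and Csf1r (0.804), D2580.1 in Rufy2 (109), D1961.1 in Ccl12 (1.89), and C4321.6 in Uty (0.216), which is also its sum of Y-linked genes (0.216).

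Exposed embryo D2587.1 stood above the other exposed embryos in H2-L (2.45), Fam69b (6.80), Sycp2 (17.1), Taf7l (26.3) and Wnt4 (2.31). D2582.1 stood apart in Hba-a1 (826), Hba-a2 (826), the sum of erythroid markers (1653), Dppa5a (5423), Ccl27a (90.3) and Ccl12 (1.66). C4219.4 did in the sum of stroma and mesonephros markers (15.9), C4258.2 in Ccr7 (1.83) and D1824.1 in Amhr2 (0.607).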

How the results depend on the processing

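Frat2 was higher in every alternative that tested it, with a log2 fold change from 1.12 (pseudocount 1) to 1.86 (DESeq2) and an adjusted p from 4.44e-05 (DESeq2) to 0.898 (quasi-likelihood test without the deep libraries). A minimum mean of 5 removed it. Several choices were made after values were seen. The edgeR fits without the deep libraries, the litter block in the contrast of sexes and the promoter search were added then, and genes at 3 reads or fewer in both groups were left out of the comparison of signs. Upper quartile scaling was first computed over nonzero values and then, after its result was known, over all genes, because the number of nonzero genes follows depth, and both are given. Causes of the changes below were not tested, apart from those that test fewer genes or embryos by construction. Depth limits low genes, for which 1 read in D2582.1 is a value of 0.238.

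Against 1 gene called, there were 2 with a pseudocount of 0.1, 0 with a minimum mean of 5, 2 with upper quartile scaling in either form, 3 with the quasi-likelihood test, 8 with the likelihood ratio test, 18 with DESeq2, and 0 with only the 10 females (Frat2 adjusted p = 0.307), with thinned reads (Frat2 adjusted p = 0.112), and without the deep libraries in limma and in both edgeR tests. Leaving out single embryos gave 0 to 25. Genes higher at the looser rule (439) numbered 215 with a minimum mean of 5, 709 with upper quartile scaling (714 over nonzero values), 691 with the likelihood ratio test, 722 with DESeq2, 218 without the deep libraries, 260 without them in the quasi-likelihood test, and 268 to 707 without single embryos. Genes lower (566) numbered 363, 311 (279 over nonzero values) and 285 for the minimum mean, upper quartile and limma without the deep libraries, 238 and 187 for the likelihood ratio and quasi-likelihood tests without them, and 338 to 898 without single embryos. Embryos that moved these counts most were C4219.4 (288 higher), D2587.1 (707 and 898), C4321.6 (268 and 338) and D2582.1 (362 lower). The likelihood ratio test called 4 genes for sex and 1 for F1 against F2, where limma called 0, and limma with litter as a random block called 2 for sex. Male-specific and female-specific genes (1019 and 1087) numbered 463 and 482 with a minimum mean of 5, and 3330 and 3300 without the fold minimum.

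Of 110 named genes tested, these changed sign, none of them called in any setting. Acvr2b (-0.03) was 0.074 with upper quartile scaling (0.079 over nonzero values), 0.19 and 0.21 in the quasi-likelihood and likelihood ratio tests, 0.24 in DESeq2, 0.056 with the litter block, 0.45 without the deep libraries (0.58 and 0.57 in the likelihood ratio and quasi-likelihood tests), 0.23 with a depth term, 0.14 thinned, and -0.33 to 0.23 without single embryos. C1qb (-0.06) was 0.050 with upper quartile scaling (0.051 over nonzero values), 0.039 and 0.086 in the quasi-likelihood and likelihood ratio tests, 0.11 in DESeq2, 0.14 with the litter block, 0.64 without the deep libraries (0.58 and 0.56), 0.083 with a depth term, and -0.42 to 0.42 without single embryos. Ccr7 (-0.02) was 0.017 with a pseudocount of 1 and 0.020 with upper quartile scaling (0.056 over nonzero values), 0.70 and 0.53 in the edgeR tests, 0.59 in DESeq2, 0.072 with the litter block, 0.0076 with a depth term, and -0.36 to 0.19 without single embryos. Pecam1 (0.08) was -0.037 and -0.038 in the quasi-likelihood and likelihood ratio tests, -0.011 in DESeq2, -0.046 without the deep libraries (-0.076 in both edgeR tests), and -0.23 to 0.26 without single embryos. Without the deep libraries in limma, the likelihood ratio and the quasi-likelihood test, Ccl3 (-0.59) was 0.55, 0.65 and 0.60, Syce3 (-0.50) was 0.054, 0.0016 and 0.00054, and Ccnb2 (0.16) was -0.034, -0.028 and -0.028 (-0.013 to 0.29 without single embryos). In the edgeR tests alone, Cyp26b1 (0.41) was -0.24 and -0.25, and Wnt4 (-0.44) was 0.090 and 0.13. Kitl (0.32) was -0.0011 in limma. Dnmt1 (-0.11) was 0.010 and 0.022 with the upper quartile scalings. Without single embryos, Pou5f1 (0.30) ranged from -0.17 to 0.58 and Sycp3 (-0.38) from -0.66 to 0.12.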
